A study of Mus musculus with 23 samples.

Results

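The genes described here, 10 in number, act in the breakdown of extracellular matrix and its control: the ADAMTS proteases Adamts1, Adamts4 and Adamts5, the matrix metalloproteinases Mmp2, Mmp3 and Mmp14, and the tissue inhibitors Timp1, Timp2, Timp3 and Timp4. They were chosen by name, as the rows of the deposited expression table whose gene symbol is one of these names. All 10 were found among the 14500 genes of the table, and all 10 were among the 12820 genes that reached an FPKM (fragments per kilobase of exon, scaled to the library's size) of at least 1 in at least 2 libraries and were tested.

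The samples were whole tibialis anterior, a fast muscle of the shin, from female C57BL/6 mice fed ad libitum, sequenced as 23 libraries of total RNA. The study concerns the effect of sympathectomy, the loss of sympathetic nerves, on the clock of muscle, and the comparisons follow its factors of treatment, time of day and genotype. Treated muscle received 6-OHDA, a toxin that destroys sympathetic nerve endings, by intramuscular injection at 50 mg/kg on alternate days for 2 weeks, and was collected after a further 2 weeks. Sham muscle was muscle that had not been injected, so an effect of 6-OHDA and an effect of the repeated injection cannot be told apart. Muscle was taken at zeitgeber time (ZT) 0, when lights go on, or at ZT12, when they go off. Wild-type sham muscle had 4 libraries at ZT0 and 3 at ZT12, from mice of 12 to 18 weeks. Wild-type 6-OHDA muscle had 4 libraries at each time, from mice of 12 to 16 weeks. Within that group the mice were 15 to 16 weeks old at ZT0 and 12 to 15 weeks at ZT12. Time and age therefore could not be fully told apart in wild-type 6-OHDA muscle. The RE-RE mice carried Bmal1(stopFL/stopFL), in which a stop cassette silences the clock gene Bmal1 (Arntl). The cassette is removed where a Cre is active, here Syt10-Cre(-/tg) in neurons that include those of the central clock and also Hsa-Cre(-/tg) in skeletal muscle fibres. RE-RE sham muscle (10 to 11 weeks) and RE-RE 6-OHDA muscle (12 to 18 weeks) had 2 libraries at each time. Cells without either Cre, fibroblasts, macrophages and endothelium among them, still lack Bmal1 in the RE-RE design. The labels do not say whether any libraries share an animal, and p-values measure the spread between these libraries.

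Matrix metalloproteinases and ADAMTS proteases are zinc enzymes that cut collagens, proteoglycans and other components outside cells, and they are made in muscle largely by fibroblasts, by immune cells and by cells that repair fibres. Mmp14 is a membrane-bound collagenase that also activates the pro-form of Mmp2, a gelatinase, in a complex that uses Timp2 as a bridge, while Mmp3 (stromelysin-1) cuts proteoglycans and activates other proteases. Adamts1, Adamts4 and Adamts5 cut large proteoglycans such as versican and aggrecan. The TIMPs bind the active site of these enzymes, Timp3 being held in the matrix and also blocking ADAMTS proteases, and Timp4 being the member best known from heart and skeletal muscle.

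The depth recovered from the values was 21.1 to 36.1 M reads per library. Arntl stood at 8.87 to 15.7 FPKM in the libraries at ZT0 and at 1.23 to 4.07 FPKM in those at ZT12, in both genotypes, and markers of muscle fibre were high in each group. The spread between replicates was larger in RE-RE muscle, where the median residual standard deviation (SD) over all tested genes was 0.451 log2 units against 0.216 in wild-type muscle. The limma fit pooled the spread over both genotypes. For 8 of the 10 members the residual SD was also larger in RE-RE muscle, from 0.812 against 0.645 for Adamts4 to 1.67 against 0.706 for Timp1, while for Adamts1 (0.312 and 0.327) and Timp4 (0.707 and 0.703) it was about the same. Among the RE-RE libraries, 6-OHDA ZT0 library 2 had summed fibroblast markers of 213.7 FPKM and summed regenerating fibre markers of 21.9 FPKM, within or below the range of sham libraries, whereas library 1 of the same group had 1127 and 94.0 FPKM. RE-RE sham ZT0 library 1 and RE-RE sham ZT12 library 4 had 175.7 and 65.7 FPKM of 5 bone markers (Ibsp, Bglap, Bglap2, Sp7 and Dmp1, a list drawn up after the values were seen), against at most 14.8 FPKM in wild-type libraries. Results for the members in RE-RE muscle are given without such libraries where a call changed.

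The stretch of 100 bases before the start site is shown for 4 members, because Mmp3 and Mmp14 rose with 6-OHDA while Timp3 and Timp4 were the inhibitors with the largest log2 differences between times in wild-type muscle. RefSeq sequences on GRCm38.p6 were at hand for 7 of the 10 genes, the others being Adamts4, Adamts5 and Mmp2. Capitals mark matches to any of 5 short motifs, searched on both strands: AP-1 (TGANTCA), the E-box that Bmal1 and its partner Clock bind (CACGTG), the cyclic AMP element (TGACGTCA), the TATA box (TATAAA) and the GC box (GGGCGG).
Mmp3, chr9:7445722-7445821, plus strand: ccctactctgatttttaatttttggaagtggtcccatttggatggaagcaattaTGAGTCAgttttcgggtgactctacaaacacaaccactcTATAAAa
Mmp14, chr14:54431498-54431597, plus strand: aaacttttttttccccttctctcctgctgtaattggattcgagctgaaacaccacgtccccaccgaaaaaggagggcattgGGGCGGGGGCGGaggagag
Timp3, chr10:86300312-86300411, plus strand: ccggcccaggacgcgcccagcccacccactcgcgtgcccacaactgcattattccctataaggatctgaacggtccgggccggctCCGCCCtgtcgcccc
Timp4, chr6:115252206-115252305, minus strand: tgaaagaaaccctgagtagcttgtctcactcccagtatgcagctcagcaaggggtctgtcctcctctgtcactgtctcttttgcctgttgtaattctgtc

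In the 250 bases searched before each start, Mmp3 was the only one of the 7 genes with an AP-1 match, 46 bases upstream, and it also held a TATA match 7 bases upstream. AP-1 letters were found in 6.75% of 32851 promoters and TATA letters in 12.4%. Mmp14 held 2 adjoining GC boxes, 19 and 13 bases upstream, and Adamts1, Timp1, Timp2 and Timp3 held at least 1, as did 32.7% of promoters. Timp4 held no match to any of the 5 motifs. None of the 7 windows held the E-box or the cyclic AMP letters, which occur in 6.02% and 1.55% of promoters. A match is a run of letters and no evidence of binding.

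In wild-type muscle 6-OHDA went with more RNA of all 3 metalloproteinases, all 3 ADAMTS proteases and 3 of the 4 inhibitors. Taken over both times, 9 of the 10 genes passed the test as higher (limma, Benjamini-Hochberg adjusted p under 0.05), from 1.41-fold for Adamts1 to 4.38-fold for Adamts4. Timp4 stood apart, at -0.78 log2 units with an adjusted p of 0.0752. Among all tested genes 18.8% were called higher. For 4 members (Adamts5, Mmp2, Mmp14 and Timp2) the 8 treated and 7 sham libraries did not overlap, as for 13.9% of all genes. The members' median difference was 1.29 log2 units, and that of all tested genes was -0.04. Fibroblast and macrophage markers moved the same way, with values given below.

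**Figure D1:**
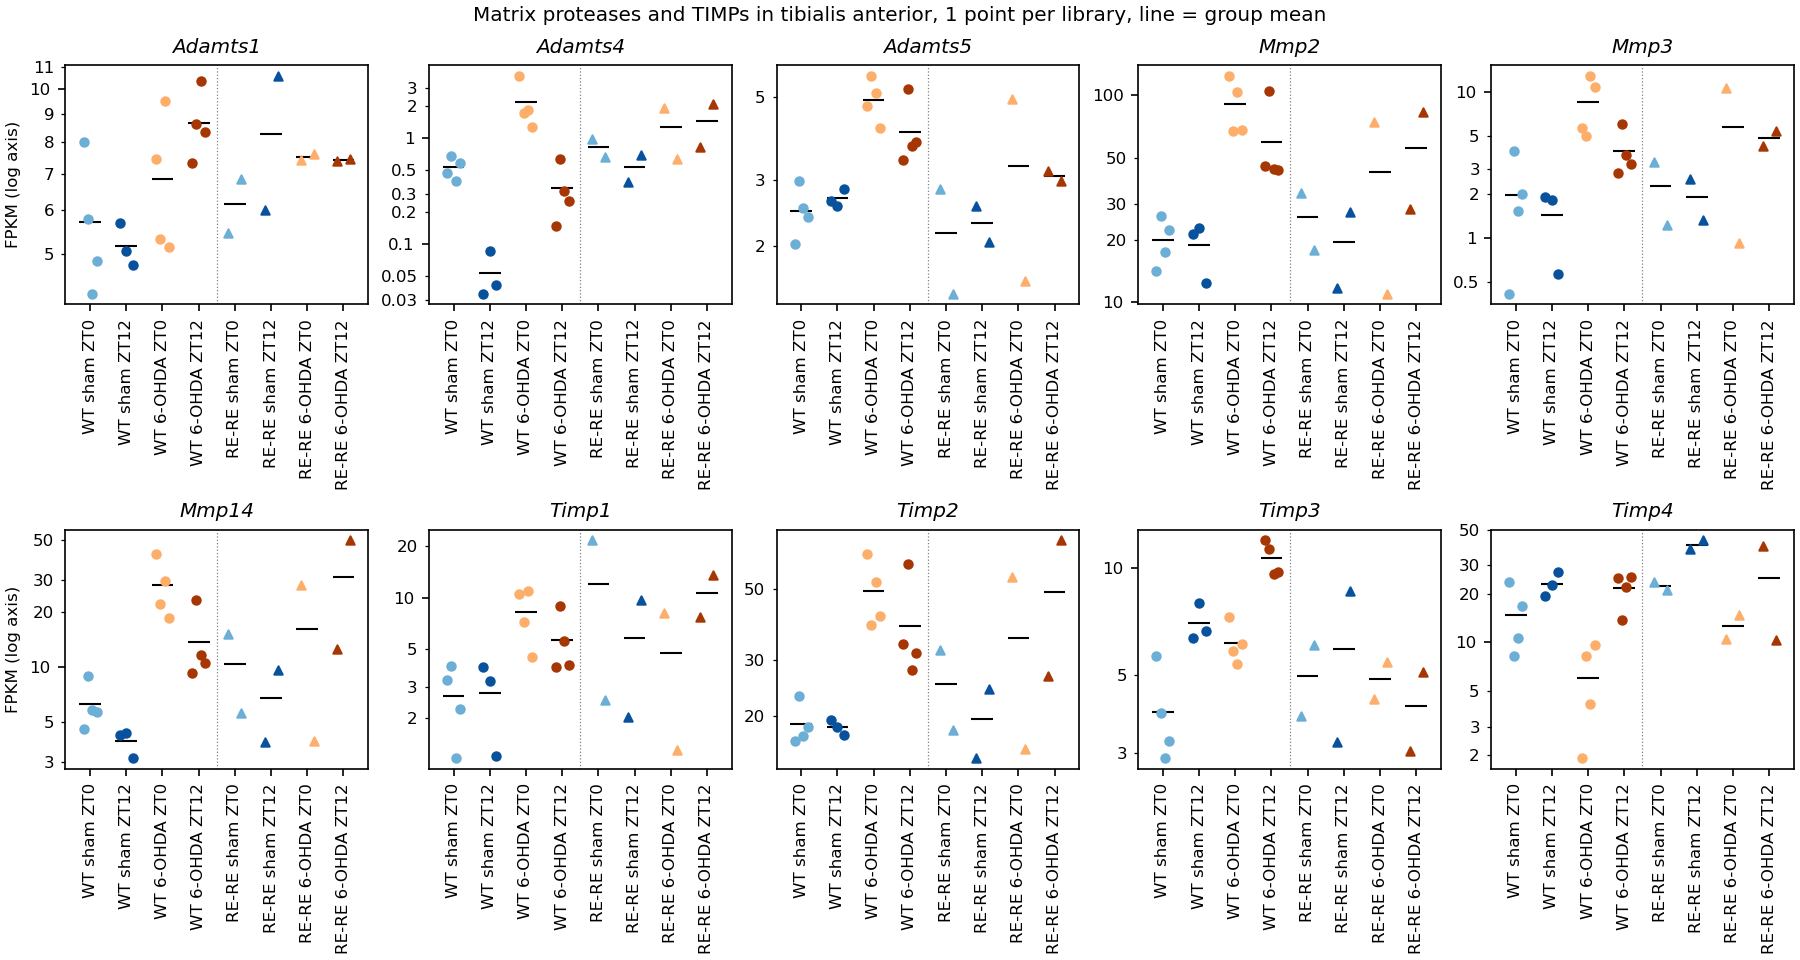
FPKM of the 10 genes in each library on log axes, 1 panel per gene, with circles for wild-type and triangles for RE-RE muscle and a line at the mean of each group. In wild-type muscle the 6-OHDA libraries of Mmp2 lie between 43.8 and 123.9 FPKM, all above the sham libraries, and Adamts4 falls from ZT0 to ZT12 under both treatments.

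Mmp2 was the most abundant of the 10 genes after 6-OHDA. In wild-type sham muscle it stood at 14.2, 26.3, 17.5 and 22.4 FPKM at ZT0 and at 21.3, 22.99 and 12.5 FPKM at ZT12. In 6-OHDA muscle it stood at 123.9, 67.5, 103.8 and 67.9 FPKM at ZT0 and at 45.6, 104.6, 44.4 and 43.8 FPKM at ZT12. Each of the 8 treated libraries lay above all 7 sham libraries. Over both times Mmp2 was 3.68-fold higher (log2 difference 1.88 ± 0.36 SE, adjusted p 0.00188 by limma).

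Mmp14, the membrane collagenase that activates Mmp2, followed a like pattern at a lower level. Its sham values were 4.54, 8.93, 5.82 and 5.63 FPKM at ZT0 and 4.25, 4.32 and 3.16 FPKM at ZT12. The 6-OHDA values were 41.8, 22.2, 29.9 and 18.6 FPKM at ZT0 and 9.31, 23.4, 11.6 and 10.5 FPKM at ZT12. These sets of values did not overlap, and the rise was 3.82-fold (1.93 ± 0.39 SE, adjusted p 0.00228). Mmp3 (stromelysin-1) was scarce in sham muscle, at 0.419, 3.98, 1.53 and 2.00 FPKM at ZT0 and 1.92, 1.83 and 0.5682 FPKM at ZT12. It reached 5.66, 5.04, 12.9 and 10.9 FPKM at ZT0 and 2.78, 6.03, 3.72 and 3.21 FPKM at ZT12 after 6-OHDA. The groups met at the edges, since 5 of the 8 treated libraries exceeded the highest sham value, and the rise was 3.95-fold (1.98 ± 0.50 SE, adjusted p 0.00694). Mmp3 rested on few reads, from 16 to 716 per library.

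The ADAMTS proteases rose by unequal amounts. Adamts4, an aggrecanase, showed the largest fold of the 10 genes over both times, 4.38-fold (2.13 ± 0.35 SE, adjusted p 0.00122), at low levels that are described with its day-night difference below. Adamts5, the other main aggrecanase, rose 1.71-fold (0.78 ± 0.19 SE, adjusted p 0.00586). Its 7 sham libraries lay between 2.02 and 2.97 FPKM and its 8 treated libraries between 3.39 and 5.67 FPKM, with no overlap. Adamts1, which cuts versican, changed least, 1.41-fold (0.50 ± 0.16 SE, adjusted p 0.0234). Its treated libraries at ZT0 were at 7.46, 5.31, 9.51 and 5.14 FPKM, of which 1 lay above the sham values of 8.01, 5.77, 4.22 and 4.84 FPKM and 3 among them. At ZT12 the 4 treated libraries, at 7.32, 8.63, 10.4 and 8.36 FPKM, all exceeded the sham values of 5.68, 5.05 and 4.77 FPKM. The Adamts1 call was lost without wild-type sham ZT0 library 3 (adjusted p 0.0528), sham ZT12 library 7 (0.0548) or 6-OHDA ZT0 library 3 (0.0501).

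Adamts1 and Adamts5 lie next to each other on the minus strand of chromosome 16 of GRCm38, at chr16:85793827-85803113 and chr16:85856173-85901828 in GENCODE M21, with 53059 bases between them. The Pearson correlation of their log2 FPKM over the 23 libraries, given as a description, was 0.13.

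Of the inhibitors, Timp2, the bridge in the activation of Mmp2, was the most abundant in 6-OHDA muscle and moved most like the proteases. Sham libraries held 16.6, 23.1, 17.2 and 18.5 FPKM at ZT0 and 19.3, 18.4 and 17.4 FPKM at ZT12. Treated libraries held 64.4, 38.6, 52.9 and 41.4 FPKM at ZT0 and 33.6, 60.2, 27.8 and 31.5 FPKM at ZT12. The treated and sham values did not overlap, and Timp2 was 2.27-fold higher (1.18 ± 0.26 SE, adjusted p 0.00334). Over the 23 libraries, which span both treatments and differ in their share of other cells, log2 FPKM of Timp2 correlated with Mmp2 and with Mmp14 at r = 0.97, and Mmp2 with Mmp14 at r = 0.94.

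Timp1, a secreted inhibitor known to be induced in injury and inflammation, stood at 3.34, 3.98, 1.17 and 2.25 FPKM at ZT0 and 3.94, 3.28 and 1.20 FPKM at ZT12 in sham muscle. After 6-OHDA it stood at 10.5, 7.27, 10.9 and 4.54 FPKM at ZT0 and 3.94, 9.01, 5.62 and 4.07 FPKM at ZT12. Only 1 treated library fell within the sham range, and the rise was 2.62-fold (1.39 ± 0.50 SE, adjusted p 0.0373). This call was the least secure of the 9: it was lost when any 1 of 9 of the 15 wild-type libraries was left out (sham ZT0 3 or 4, sham ZT12 6 or 7, 6-OHDA ZT0 1, 2 or 3, 6-OHDA ZT12 6 or 7), with adjusted p from 0.0509 to 0.109.

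Timp3, the matrix-bound inhibitor, rose 1.57-fold over both times (0.65 ± 0.19 SE, adjusted p 0.0154). Its values overlapped between treatments over both times and at ZT0. At ZT0 sham muscle held 5.66, 3.89, 2.91 and 3.25 FPKM and treated muscle 7.31, 5.83, 5.35 and 6.11 FPKM. At ZT12 sham muscle held 6.35, 7.98 and 6.64 FPKM and treated muscle 12.0, 11.4, 9.64 and 9.76 FPKM, all above the sham libraries.

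Timp4 ran the other way at ZT0. Sham muscle held 23.7, 8.19, 10.6 and 16.8 FPKM and treated muscle 1.93, 8.27, 4.16 and 9.69 FPKM, so that 2 of the 4 treated libraries fell below the lowest sham library. The fall was 2.71-fold (-1.44 ± 0.45 SE, adjusted p 0.0300). It was no longer called on TPM values, which are rescaled to an equal sum in each library (-0.77, adjusted p 0.0815), in a fit of only the groups compared (adjusted p 0.0628), or without any 1 of sham ZT0 libraries 1, 3 and 4 or treated libraries 1 and 3 (0.0506 to 0.129). At ZT12 Timp4 differed by -0.12 ± 0.49 SE (adjusted p 0.906), a difference whose sign turned on the scaling (0.27 as TPM and 0.13 with each library's own total of reads).

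The number of genes called in each direction turned on the scaling. Under the deposited scale 2414 genes were called higher and 2044 lower for 6-OHDA over both times. These became 5110 and 467 with own totals of reads, and 7460 and 184 as TPM, while the median of all genes moved from -0.04 to 0.29 and 0.49 log2 units. The members' median moved with it, to 1.62 and 1.82, and was 1.33 above that of all genes on each scale, as it must be when a library's genes are all rescaled alike. On all 3 scales 9 of the 10 members were called.

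Separated by time, 7 of the 10 members passed at ZT0, 6 higher and Timp4 lower, where 23.8% of all tested genes passed. Mmp3 was 5.25-fold higher at ZT0 (2.39 ± 0.68 SE, adjusted p 0.0202), Mmp2 4.48-fold (adjusted p 0.00997), Mmp14 4.44-fold (adjusted p 0.0124), Adamts4 3.77-fold (adjusted p 0.0120), Timp2 2.58-fold (adjusted p 0.0140) and Adamts5 1.98-fold (adjusted p 0.0150). Timp1 and Timp3 did not pass, at 1.69 ± 0.67 SE and 0.68 ± 0.26 SE (adjusted p 0.07485 and 0.0626), and neither did Adamts1 at 0.26 ± 0.22 SE (adjusted p 0.402). Timp1 and Timp3 both passed at ZT0 as TPM (adjusted p 0.0164 and 0.00665), with own totals of reads (0.0357 and 0.0139), with array weights (0.00188 and 0.00473), with the replicate number as a block (0.0212 and 0.0149) and in a fit of only the groups compared (0.0152 and 0.0321). Adamts1 passed as TPM (0.92, adjusted p 0.0216). Of all genes 6922 were called higher and 163 lower as TPM, 4289 and 365 with own totals, and 2939 and 3253 with array weights. The replicate block called 1610 and 1271 and the fit of only the groups compared 2118 and 2095, against 1743 and 1312 in the main fit. For 7 members the 4 treated and 4 sham libraries did not overlap, as for 32.1% of all genes. Leaving out treated ZT0 library 1, which had the highest Mmp2, Mmp14 and Adamts4 levels of its group, left 1 of the 7 calls, with the adjusted p of Adamts4, Adamts5, Mmp14, Mmp3 and Timp2 between 0.0511 and 0.0596.

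At ZT12 none of the members passed in the pooled limma fit, where 0.0156% of all genes did. A total of 7 members had an unadjusted p under 0.05, as had 2623 of the 12820 tested genes. Limma-voom on recovered reads also called 0 members, and the smallest adjusted p in the pooled limma fit was 0.101, for Adamts4. Treated and sham libraries nonetheless did not overlap for 9 of the 10 genes, a pattern seen in 41.3% of all genes. A fit of only the wild-type groups compared, whose spread is smaller, called 8 of the 10 (all but Timp1 and Timp4) beside 26.4% of all genes. The rises there were 5.10-fold for Adamts4, 3.29-fold for Mmp14, 3.02-fold for Mmp2, 2.97-fold for Mmp3, 1.99-fold for Timp2, 1.67-fold for Adamts1, 1.53-fold for Timp3 and 1.48-fold for Adamts5. The 6-OHDA differences at ZT12 and ZT0 were compared directly, and no member passed (0 by limma-voom as well, 0 with an unadjusted p under 0.05), where 0.0078% of all genes did. For Timp4 the change was 1.31 log2 units, with a 95% confidence interval from -0.09 to 2.71.

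**Figure D2:**
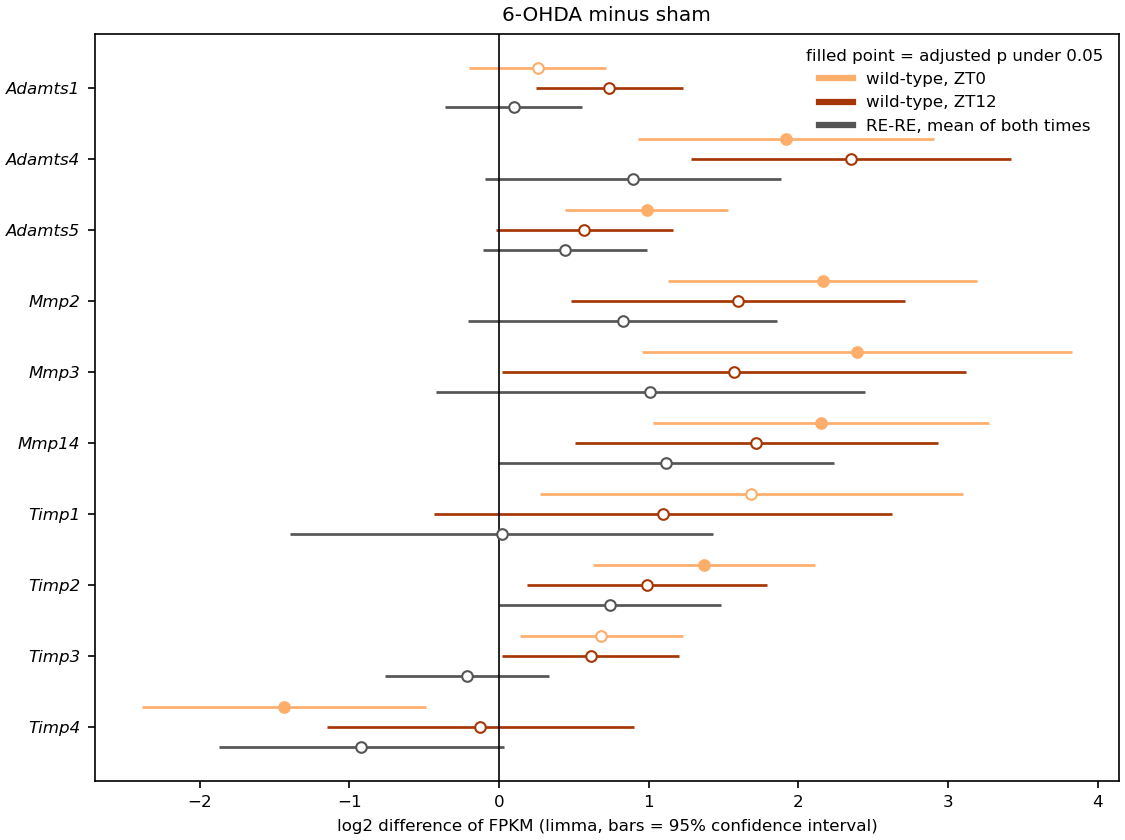
Log2 difference between 6-OHDA and sham muscle for each gene, with 95% confidence intervals from the pooled limma fit, in wild-type muscle at ZT0 and at ZT12 and in RE-RE muscle over both times, filled where the adjusted p was under 0.05. At ZT12 no point is filled although 9 of the 10 lie above 0, and Timp4 is the only gene to the left of 0 in all 3 comparisons.

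Markers of other cells moved with treatment in these muscles. Summed FPKM of 9 fibroblast markers (Pdgfra, Dcn, Col1a1 and others, none of them a member) ranged from 224.2 to 507.3 in wild-type sham libraries and from 627 to 1498 in treated ones, and 8 of the 9 passed as higher over both times. The sum of 9 macrophage markers ranged from 25.2 to 68.8 and from 150.1 to 532.6 FPKM, with 8 of 9 higher. The sum of 6 markers of regenerating fibres, embryonic myosin Myh3 among them, ranged from 23.5 to 40.5 and from 40.7 to 162 FPKM, with 5 of 6 higher, while 7 muscle fibre markers summed to 50380 to 61590 FPKM in sham and 36090 to 49720 FPKM in treated libraries, with 2 of 7 higher and 3 lower. Neutrophil markers summed to at most 1.12 FPKM in wild-type libraries, with 3 of the 5 (S100a8, Retnlg and Ly6g) at 0 or not listed. At that low level the neutrophil marker Csf3r passed as higher over both times (3.97-fold, adjusted p 0.00283 by limma). Of the other lists, 3 of 4 adipocyte, 2 of 5 endothelial, 2 of 5 smooth muscle and pericyte, 2 of 5 tested tendon and 2 of 4 Schwann cell markers were higher and 3 of 5 erythroid markers lower. No T cell marker was abundant enough to be tested. In whole muscle, fewer or more cells of a type and less or more RNA per cell cannot be told apart, and the part of these cells in the rise of the proteases was not tested.

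**Figure D3:**
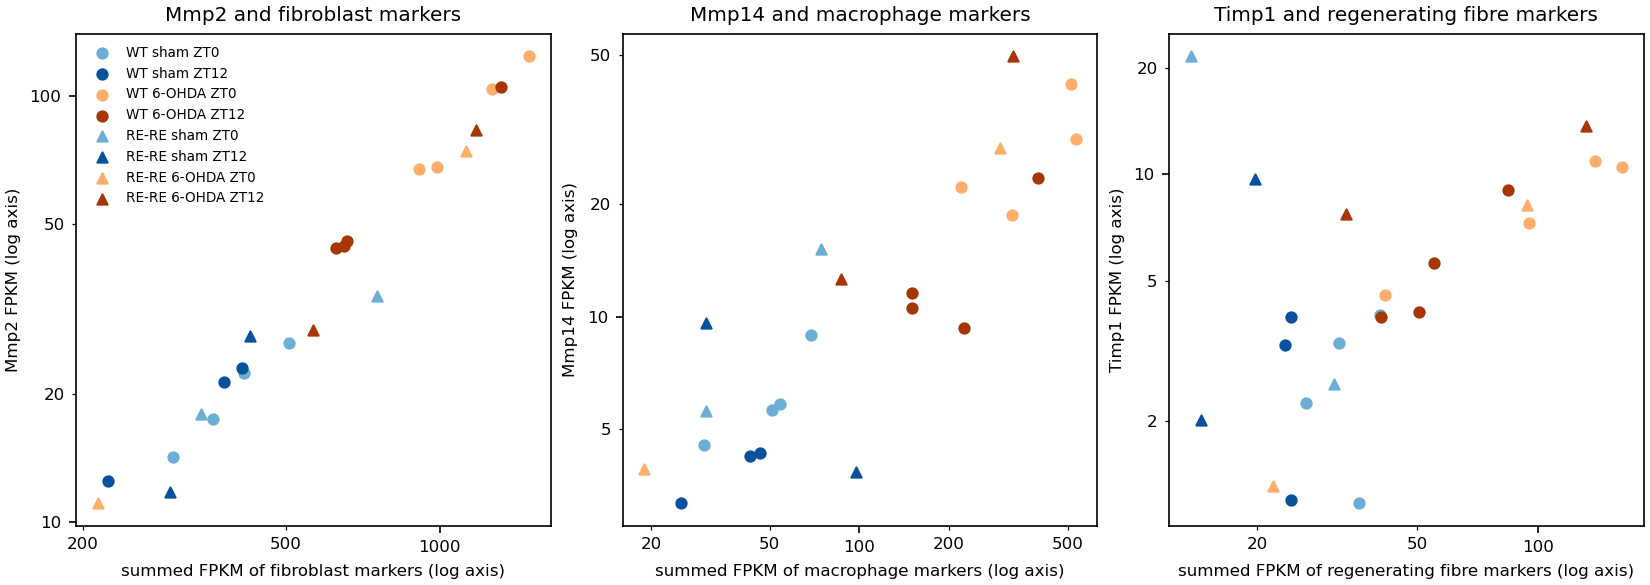
Each library's FPKM of Mmp2 against its summed FPKM of fibroblast markers, of Mmp14 against macrophage markers and of Timp1 against regenerating fibre markers, on log axes, with circles for wild-type and triangles for RE-RE muscle. The Mmp2 points run along 1 band from 213.7 summed FPKM and 11.0 FPKM, in RE-RE 6-OHDA ZT0 library 2, to 1498 and 123.9 FPKM, while Timp1 was highest, at 21.6 FPKM, in RE-RE sham ZT0 library 1, which has the lowest regenerating fibre sum, 13.7 FPKM.

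Genes were ranked by how closely their log2 FPKM followed each member over the 23 libraries. Those at the top were Fn1 (fibronectin, r = 0.99), Ptgfrn and Antxr1 for Mmp2, Dap, Htra1 (a secreted serine protease) and Sh3pxd2b (an invadopodium scaffold) for Mmp14, and Ccl8, Cbr3 and Antxr2 for Mmp3. For Timp2 they were the collagen gene Col5a1, the procollagen protease Adamts2 and the proteoglycan Bgn (r = 0.978 for Col5a1), and for Timp1 they were Lox (the collagen cross-linker, r = 0.931), Tnc and Tmem45a. Adamts4 was followed by Rhoj, Spon2 and Col5a3 (r from 0.906 to 0.936), and Adamts5 by Eno1 and Cd34 (both r = 0.932). Timp3 was followed by Acot11, Ephx1 and Itpr2 and Timp4 by Car4 (carbonic anhydrase 4, r = 0.90), Fam240a and Sult1a1. Adamts1 had the weakest neighbours, Plk3, Zdhhc23 and Amotl2, with r from 0.692 to 0.703. Timp4 correlated negatively with Mmp2 (r = -0.63) and Mmp14 (r = -0.62). These are descriptions over libraries that share treatment groups and cell content.

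Other genes of the same systems were read from lists of 1 family each. Of 7 tested other metalloproteinases (17 listed), 3 rose with 6-OHDA in wild-type muscle over both times: Mmp19, 5.71-fold, Mmp23, 4.40-fold, and Mmp11, 1.65-fold. Of 9 tested other ADAMTS proteases (16 listed), 7 rose and none fell, among them Adamts12 (3.301-fold), Adamts2 (3.08-fold), Adamts15 (2.56-fold) and Adamts20 (2.32-fold). The median differences were 0.72 and 1.21 log2 units, against -0.04 for all genes. Of 4 tested ADAMTS-like proteins, which lack the protease domain, 1 rose (Adamtsl3, 1.92-fold).

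Of 6 tested further inhibitors and clearance genes 4 rose: Tfpi2 (3.41-fold), Serping1, the C1 inhibitor (2.49-fold), Lrp1, the receptor that takes up proteases and TIMPs (2.46-fold), and Reck, a membrane-anchored metalloproteinase inhibitor (1.99-fold). The cathepsin inhibitor Cst3, named after its values were seen, did not pass, with means of 295.1 and 261.7 FPKM in sham muscle at ZT0 and ZT12 and 224.9 and 228.5 FPKM after 6-OHDA. In the plasminogen system, whose product plasmin activates metalloproteinases, 4 of 5 tested genes rose and Serpine2 fell (named because it was the only one to fall). Plat was 2.19-fold, Plaur 1.91-fold and Plau 1.53-fold higher. Of 5 matrix cathepsins 3 rose, led by Ctss, a cathepsin of antigen-presenting cells (7.78-fold), and Ctsk (3.002-fold). Of 6 tested proteoglycans and hyaluronan partners, substrates of the ADAMTS enzymes, 5 rose, led by Vcan (4.95-fold), Bgn (3.61-fold), Lum (3.02-fold) and the hyaluronan receptor Cd44 (2.64-fold); Lum, Dcn and Fmod are also in the marker lists. Of the cytokines known to induce these genes only Tgfb1 was tested, and it rose 2.12-fold.

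Few members passed between times of day, and Adamts4 had the largest difference. In wild-type sham muscle Adamts4 stood at 0.469, 0.684, 0.399 and 0.580 FPKM at ZT0 and at 0.0342, 0.0866 and 0.0409 FPKM at ZT12, from 37 to 80 reads down to 4 to 9 reads. In wild-type 6-OHDA muscle it stood at 3.86, 1.73, 1.86 and 1.28 FPKM at ZT0 and at 0.147, 0.639, 0.316 and 0.255 FPKM at ZT12. Neither pair of groups overlapped. The fall from ZT0 to ZT12 was 8.86-fold in sham muscle (-3.15 ± 0.51 SE, adjusted p 0.00422) and 6.55-fold in 6-OHDA muscle (-2.71 ± 0.47 SE, adjusted p 0.00803), and the difference between these was 0.44 ± 0.69 SE (adjusted p 0.9998, 95% interval -1.02 to 1.89). At such low counts the sham call depended on the scale: it was lost with log2(FPKM + 1), which shrank it to -0.54, and with limma-voom on recovered reads (-3.31, adjusted p 0.109, and -3.32, adjusted p 0.115 with TMM). The 6-OHDA call was lost as TPM (-2.97, adjusted p 0.0521).

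Adamts4 was the only member called between times in wild-type sham muscle, where 0.647% of all genes were called. In wild-type 6-OHDA muscle the called members were Adamts4 and Timp4, against 0.671% of all genes. Mice of this group were 15 to 16 weeks old at ZT0 and 12 to 15 weeks at ZT12. All its differences between times are thus also differences between ages. Timp4 rose from ZT0 to ZT12 in treated muscle, from 1.93, 8.27, 4.16 and 9.69 FPKM to 25.2, 13.7, 21.9 and 25.5 FPKM, with no overlap. This was 4.16-fold (2.06 ± 0.45 SE, adjusted p 0.0385). The call did not hold as TPM (1.83, adjusted p 0.0506), with age as a covariate (0.181), in a fit of only the groups compared (0.104), or without any 1 of treated libraries 1, 3, 5, 7 and 8 (0.1097 to 0.164). In sham muscle the Timp4 difference was 0.74 ± 0.49 SE (adjusted p 1), with ZT12 values of 19.4, 22.6 and 27.3 FPKM within and just above those at ZT0.

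Timp3 stood higher at ZT12 in both treatments of wild-type muscle, by 0.87 ± 0.28 SE in sham and 0.80 ± 0.26 SE in 6-OHDA muscle, with no overlap of its libraries in either, yet did not pass (adjusted p 0.257 and 0.299). With array weights, which give less weight to variable libraries, both passed (0.89 and 0.82 log2 units, adjusted p 0.00333 and 0.00335). Array weights also called more of all genes, in sham muscle 322 higher and 384 lower against 34 and 49 in the main fit. In 6-OHDA muscle they called 826 higher and 777 lower against 71 and 15. A limma fit of only the groups compared called Timp3 in 6-OHDA muscle (0.80, adjusted p 0.0221), with 106 of all genes higher and 28 lower. It did not call Timp3 in sham muscle. Groups did not overlap between times for 3 members in sham muscle (Adamts4, Mmp14 and Timp3), as for 12.2% of all genes, and for 3 in 6-OHDA muscle (Adamts4, Timp3 and Timp4), as for 7.29%.

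In 6-OHDA muscle the metalloproteinases had lower mean values at ZT12 and did not pass: Mmp14 differed by -1.07 ± 0.54 SE (adjusted p 0.729), Mmp3 by -1.08 ± 0.68 SE (0.835) and Mmp2 by -0.67 ± 0.49 SE (0.866). With array weights Mmp14 and Mmp2 passed (-1.29 and -0.90, adjusted p 0.0092 and 0.0478), in a fit that called 826 of all genes higher and 777 lower. Summed fibroblast markers were lower in the same libraries, 627 to 1318 FPKM at ZT12 against 909.1 to 1498 FPKM at ZT0, and none of those 9 markers passed between times.

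**Figure D4:**
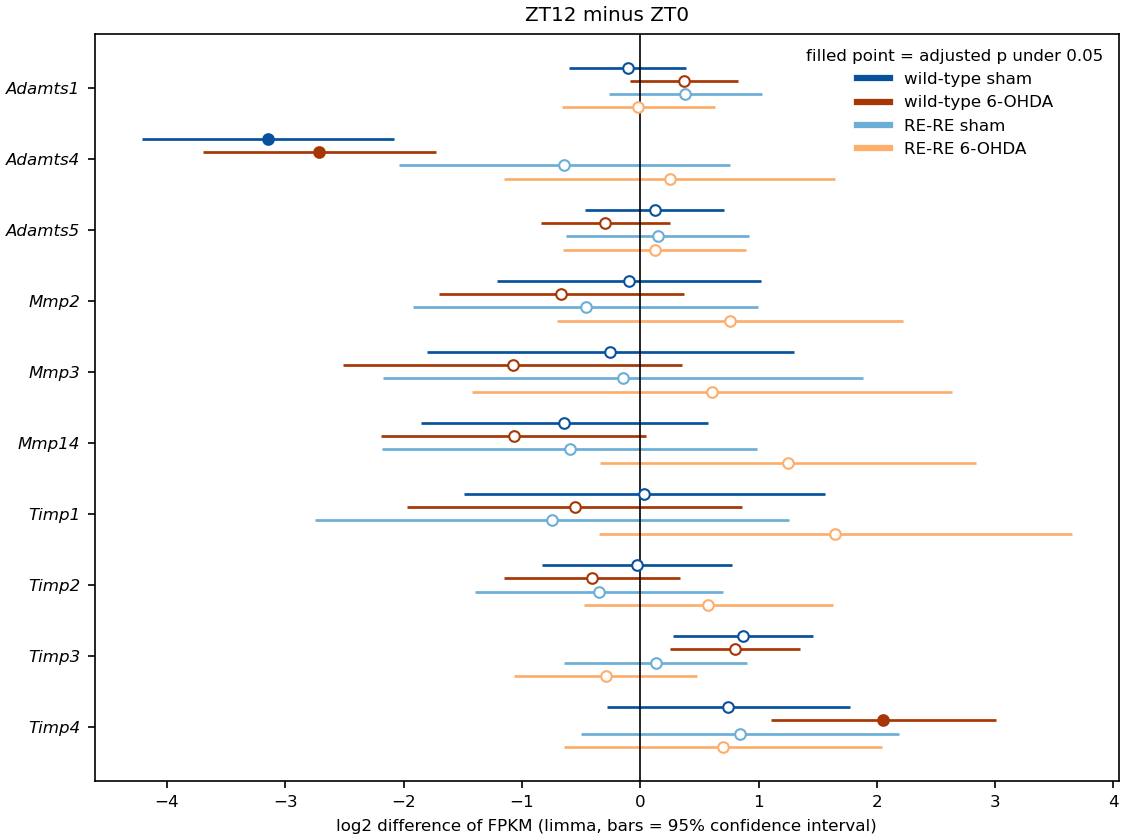
Log2 difference between ZT12 and ZT0 for each gene in the 4 combinations of genotype and treatment, with 95% confidence intervals from the pooled limma fit, filled where the adjusted p was under 0.05. Filled points are Adamts4 in both wild-type comparisons, at -3.15 and -2.71, and Timp4 in wild-type 6-OHDA muscle, at 2.06.

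RE-RE muscle gave less clear differences. With 6-OHDA over both times 8 of the 10 members had positive differences, with a median of 0.59 log2 units, but none passed (limma; 0 with an unadjusted p under 0.05; 0 by limma-voom), while 26.9% of all genes did. That share of all genes turned on the setting. With age as a covariate 3 genes were called higher and 0 lower, and in a fit of only the groups compared 2 and 0. With array weights no gene was called. Treated RE-RE mice were also older than RE-RE sham mice. With the replicate number as a block Mmp14 (1.12, adjusted p 0.0373) and Timp2 (0.74, adjusted p 0.0484) passed, and as TPM Timp2 (1.29, adjusted p 0.0458) and Adamts5 (0.98, adjusted p 0.0384) did. The block fit called 1499 of all genes higher and 1664 lower, and TPM called 4523 and 222. Mmp14 differed by 1.12 ± 0.54 SE (adjusted p 0.113) and Mmp2 by 0.83 ± 0.49 SE (adjusted p 0.193). Mmp2 stood at 33.9 and 17.9 FPKM in sham muscle at ZT0 and 11.7 and 27.3 FPKM at ZT12, and at 74.2 and 11.0 FPKM after 6-OHDA at ZT0 and 28.2 and 83.0 FPKM at ZT12. One library of each treated pair was high and the other was near sham levels.

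Mmp14 and Timp2 showed the same split within pairs of libraries. Mmp14 stood at 15.2 and 5.58 FPKM in RE-RE sham muscle at ZT0 and 3.85 and 9.61 FPKM at ZT12, and at 28.3 and 3.91 FPKM at ZT0 and 12.6 and 49.7 FPKM at ZT12 after 6-OHDA. Timp2 stood at 32.3 and 18.0 FPKM and at 14.7 and 24.3 FPKM in sham muscle, and at 54.7 and 15.7 FPKM and at 26.7 and 71.4 FPKM in treated muscle, in the same order of times. Both genes, like Mmp2, were highest at ZT0 in library 1 and at ZT12 in library 4 under either treatment. Mmp3 stood at 3.33 and 1.23 FPKM and at 2.53 and 1.33 FPKM in sham muscle, and at 10.7 and 0.927 FPKM and at 4.31 and 5.39 FPKM in treated muscle. Adamts5 ranged from 1.49 to 2.84 FPKM in the 4 sham libraries and from 1.61 to 4.92 FPKM in the 4 treated ones, with only library 2 of the treated ones inside the sham range. Adamts1 stood at 5.45 to 10.6 FPKM in sham and 7.38 to 7.61 FPKM in treated libraries. Timp4 stood at 10.5 and 14.7 FPKM at ZT0 and 39.4 and 10.4 FPKM at ZT12 in treated muscle, where 3 of the 4 libraries lay below all sham libraries, at 21.1 to 42.8 FPKM (-0.92 ± 0.45 SE, adjusted p 0.122).

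The low value at ZT0 belonged to library 2, in which regenerating fibre and fibroblast markers were also low. The omissions that follow leave 1 library in a group, so only sizes are given. Without library 2 the 6-OHDA difference in RE-RE muscle was 1.89 log2 units for Mmp3, 1.83 for Mmp14 and 1.51 for Mmp2. It was 1.29 for Adamts4, 1.19 for Timp2 and 0.84 for Adamts5. Without 6-OHDA ZT12 library 3 as the only one left out, the difference was 1.61 for Mmp14, 1.10 for Timp2 and -1.40 for Timp4. Sham ZT0 library 1, sham ZT12 library 3 and 6-OHDA ZT0 library 2 were also left out together, a set taken from earlier results of these data. The difference was then 2.48 for Mmp3, 1.86 for Mmp14, 1.44 for Mmp2, 1.22 for Timp2, 1.15 for Adamts5 and -0.82 for Timp3. Across all 8 RE-RE libraries 1 of 9 fibroblast markers, 0 of 9 macrophage markers and 5 of 6 regenerating fibre markers passed as higher with 6-OHDA.

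Timp1 in RE-RE sham muscle was highest in the libraries with the most bone markers. It stood at 21.6 and 2.55 FPKM at ZT0 and at 2.01 and 9.73 FPKM at ZT12, and the 21.6 and 9.73 FPKM came from the libraries with 175.7 and 65.7 FPKM of bone markers. The other 2 sham libraries had 26.1 and 4.15 FPKM of them. Tendon markers were also highest in the libraries with most bone markers, at 124 and 101.8 against 38.9 and 32.9 FPKM. So were fibroblast markers, at 752.8 and 425.4 against 340.4 and 295.7 FPKM, while some other lists, regenerating fibre markers among them, did not have this order. The Timp1 difference with 6-OHDA was 0.02 ± 0.67 SE with all libraries and 1.36 without sham ZT0 library 1 and sham ZT12 library 4. The same libraries held Mmp13, the bone and cartilage collagenase, at 159.4 and 61.7 FPKM and Mmp9, the osteoclast gelatinase, at 26.5 and 6.85 FPKM, against at most 16.8 FPKM and 2.22 FPKM in wild-type libraries; the other RE-RE sham libraries held 15.5 and 2.41 FPKM of Mmp13 and 5.86 and 1.76 FPKM of Mmp9. Among the other metalloproteinases, Mmp13 and Mmp9 were called higher in sham muscle of RE-RE mice than of wild-type mice (adjusted p 0.0422 and 0.0129) and lower with 6-OHDA in RE-RE muscle (0.0355 and 0.0196). Without these 2 libraries neither passed, between genotypes (adjusted p 0.302 and 0.0585) or with 6-OHDA (0.268 and 0.081). Leaving these 2 libraries out gave Mmp14 a 6-OHDA difference of 1.81 in RE-RE muscle. The part of RNA from bone, tendon or fibroblasts in these results was not tested.

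Other genes of these systems passed with 6-OHDA in RE-RE muscle where the members did not, in a fit that called 1522 of all genes higher and 1924 lower. With age as a covariate only 3 genes of the whole table were called, and in a fit of only the groups compared 2. With array weights 0 were called. None of these was lower, so most calls named below, Serpine2 among them, did not hold in those fits. Among the other ADAMTS proteases 5 of 9 were higher and none lower, including Adamts7 (6.48-fold, adjusted p 0.0044), Adamts14 (2.58-fold), Adamts10 (2.15-fold) and Adamts20 (2.12-fold). Of 7 other metalloproteinases Mmp11 (2.62-fold) and Mmp15 (1.87-fold) were higher, and of 4 ADAMTS-like proteins Papln (2.52-fold), Adamtsl4 (2.11-fold) and Adamtsl5 (1.77-fold) were. In the plasminogen system 3 of 5 were higher, among them Plaur (1.98-fold) and Plau (1.42-fold), and Serpine2 was lower (1.92-fold). Reck was the 1 inhibitor of 6 that passed (1.89-fold), while none of 5 cathepsins, none of 6 proteoglycans and hyaluronan partners and not Tgfb1 passed by limma. These counts changed with the libraries used. Each omission of RE-RE libraries left 1 library in a group, so counts of related genes called under them are not given.

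Between genotypes in sham muscle 1 member passed, Adamts4, which was 3.67-fold higher in RE-RE muscle (1.87 ± 0.42 SE, adjusted p 0.0161), where 9.91% of all genes passed. It stood at 0.984 and 0.665 FPKM at ZT0 and 0.382 and 0.693 FPKM at ZT12. The ZT0 values overlapped or neighboured the wild-type values of 0.399 to 0.684 FPKM, and the ZT12 values lay above the wild-type values of 0.0342 to 0.0866 FPKM. The call was lost with log2(FPKM + 1) (0.39, adjusted p 0.167), TPM (0.0846), array weights (0.379), age as a covariate (0.103), and without sham ZT0 library 1 (0.0994), without libraries 1 and 4 (0.0633) or without the 3 libraries taken from earlier results (0.0615), and with limma-voom scaled by TMM (0.0532), though not with limma-voom on the deposited scale (0.0456). Sham mice also differed in age, 10 to 11 against 12 to 18 weeks. In 6-OHDA muscle no member passed by limma or limma-voom, against 0.226% of all genes by limma. An unadjusted p under 0.05 was seen for 3 members and for 1161 of the 12820 tested genes. Timp3 came nearest, at -0.89 ± 0.23 SE (adjusted p 0.146), with RE-RE values of 4.28, 5.44, 3.05 and 5.09 FPKM against 5.35 to 12.0 FPKM in wild-type mice. Without RE-RE sham libraries 1 and 4 its difference was -0.89, and without the 3 libraries taken from earlier results it was -0.97. Without RE-RE 6-OHDA ZT0 library 1 the genotype difference was -1.59 for Mmp2 and -0.98 for Adamts5. The change of the 6-OHDA difference from wild-type to RE-RE mice was below 0 for all 10 genes, with a median of -0.84 log2 units. None passed the test of that change by limma or limma-voom, against 0.0702% of all genes by limma. An unadjusted p under 0.05 was seen for 2 members and for 1895 of all tested genes. With 3 RE-RE libraries left out as above the change for Timp3 was -1.47 and those of Mmp3, Adamts5 and Timp2 were positive, at 0.50, 0.37 and 0.04.

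Between times in RE-RE muscle no member passed, in sham (limma; 0 with an unadjusted p under 0.05; 0 by limma-voom; 0.0546% of all genes) or after 6-OHDA (0 with an unadjusted p under 0.05; 0 by limma-voom; 0.109% of all genes). Adamts4 differed by -0.64 ± 0.67 SE in RE-RE sham and by 0.25 ± 0.67 SE in RE-RE 6-OHDA muscle, with values of 1.94 and 0.635 FPKM at ZT0 and 0.834 and 2.09 FPKM at ZT12 in the latter. The change of its time difference with genotype was 2.51 ± 0.84 SE in sham (adjusted p 1, unadjusted 0.00774) and 2.96 ± 0.82 SE in 6-OHDA muscle (adjusted p 0.285, unadjusted 0.00187), and neither passed after adjustment. These tests of genotype and time were added after the values were seen. No member passed in either by limma or limma-voom, against 0.0156% of all genes in sham and 0.0546% in 6-OHDA muscle by limma. An unadjusted p under 0.05 was seen for 1 member and 368 of all tested genes in sham muscle. In 6-OHDA muscle it was seen for 3 members and 1582 of all tested genes. Without RE-RE 6-OHDA ZT0 library 1 the change after 6-OHDA was 3.76 for Adamts4 and 3.75 for Mmp14. The RE-RE 6-OHDA library then left at ZT0 was library 2, with low fibroblast markers. Within RE-RE 6-OHDA muscle, Mmp14 differed between times by 2.68 and Mmp2 by 2.13 under the same omission. In sham muscle the change for Timp3 was -1.78 without RE-RE sham libraries 1 and 4, which leaves 1 RE-RE sham library at each time. Timp4 had higher values at ZT12 in RE-RE sham muscle, 37.7 and 42.8 FPKM against 23.8 and 21.1 FPKM at ZT0, a difference of 0.84 ± 0.64 SE that did not pass (adjusted p 1).

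The members were ordered by their FPKM, a level per length of exon. In wild-type sham muscle at ZT0 Mmp2 (20.1 ± 5.32 FPKM, SD, n = 4), Timp2 (18.9 ± 2.91) and Timp4 (14.8 ± 6.95) led and their libraries overlapped, followed by Mmp14 (6.23 ± 1.89), Adamts1 (5.71 ± 1.66) and Timp3 (3.93 ± 1.22), again with overlap between neighbours. Timp1 (2.68 ± 1.24), Adamts5 (2.48 ± 0.39) and Mmp3 (1.98 ± 1.49) overlapped too, and Adamts4 was last (0.533 ± 0.125), overlapping Mmp3 in its lowest library. In wild-type 6-OHDA muscle at ZT0 Mmp2 (90.8 ± 27.9, n = 4) stood above every library of Timp2 (49.3 ± 11.8), and the highest library of Mmp14 (28.1 ± 10.2), at 41.8 FPKM, overlapped Timp2. Timp4 stood in the third place in sham muscle at ZT0, in the eighth (6.01 ± 3.60) in treated muscle at ZT0 and in the third (21.6 ± 5.52) in treated muscle at ZT12, and in the eighth place its libraries overlapped those of Timp3 and Adamts5.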

How the data were processed

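Whole tibialis anterior was profiled by RNA sequencing in 23 libraries. The deposited values are log2(FPKM + 0.01); the build GRCm38, the aligner HISAT2 2.1.0, the counter featureCounts 1.6.2 and edgeR 3.30.0 are listed with no order, per the submitters' processing notes. Strand setting, annotation and factors between libraries are not given in the sources used here. Symbols and exon lengths came from GENCODE M21 and matched 14428 of 14500 genes. FPKM was recovered by undoing the logarithm, and reads from the steps of low values: 86.5% to 94.7% of values up to 20 reads were whole within 0.1 read.

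The main test was limma 3.58.1 in R 4.3.3 on the deposited log2 values, with 1 mean for each of the 8 groups, a pooled spread with an intensity trend, and Benjamini-Hochberg adjustment over the 12820 genes that reached 1 FPKM in 2 or more libraries, called at 0.05. The fit was tested on simulated data. A mean of both times weights each time equally. Limma-voom was run on recovered reads with library sizes scaled by trimmed means of M values (TMM), written out from their definition, and with those of the deposited scale; a count given by limma-voom holds for both. Correlations and FPKM levels were computed with pandas 2.3.3, and figures drawn with matplotlib 3.10.9.

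All 10 members are named. Of each list of related genes, up to 4 of those that passed, by smallest p, are named, and of all tested genes the 3 with the highest correlation to each member; some results are not reported here. Members and lists were chosen with earlier results of these data known. The bone list, the omission of RE-RE sham libraries 1 and 4 and limma-voom on the deposited scale were chosen after the values were seen. So were the tests of time by genotype and the background of the fit of only the groups compared.

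Alternatives were log2(FPKM + 1), no filter, quantile normalization, a filter on mean log2 FPKM at 1, TPM, own totals of reads, limma-voom, array weights, age as a covariate, only the groups compared, a replicate block, and leaving out each library.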

Additional observations from a re-analysis of the deposited data

Results flagged for a closer look

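Mmp2 in wild-type 6-OHDA muscle at ZT12 stood at 104.6 FPKM in library 6, while the other 3 libraries of the group held 43.8 to 45.6 FPKM. On log2 FPKM the gap to the nearest library, divided by the range of the group, exceeded Dixon's critical value for 4 samples. Of 30 groups of log2 values examined this way 1 stood out, and chance singles out about 1 in 20. Mmp14 was also highest in library 6 of this group, at 23.4 FPKM against 9.31 to 11.6 FPKM, and was not flagged on that scale. Library 6 also had the highest fibroblast marker sum of its group, 1318 FPKM against 627 to 658.9 FPKM, and the highest macrophage marker sum, 397.5 FPKM. The part of these cells in the Mmp2 value was not tested.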

How the results depend on the processing

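Of 233 values of called members under the alternatives other than leaving out 1 library, 216 kept direction and call, 17 lost the call and none changed sign; of 225 values with 1 library left out, 195 kept both and 30 lost the call. For 6-OHDA in wild-type muscle over both times the count of 9 members stayed within 7 to 10 under every alternative run. At ZT0 leaving out 1 library gave 1 to 7 members, the lowest without 6-OHDA library 1. At ZT12 array weights and a fit of only the groups compared each gave 8 in place of 0. Of all genes they called 2592 higher and 2297 lower, and 1962 and 1424, against 1 and 1 in the main fit. Between times in sham muscle, log2(FPKM + 1), the mean log2 filter, which did not test Adamts4, and both versions of limma-voom gave 0 and array weights 2 in place of 1. In 6-OHDA muscle the mean log2 filter and age gave 1, TPM 0, array weights 5 and leaving out 1 library 1 to 2 in place of 2. For 6-OHDA in RE-RE muscle, TPM gave 2, the replicate block 2, omission of 3 libraries 6, omission of sham libraries 1 and 4 1, and leaving out 1 library 0 to 6 in place of 0. Between genotypes in sham muscle log2(FPKM + 1), the mean log2 filter, TPM, limma-voom with TMM, array weights, age and both omissions gave 0, and leaving out 1 library 0 to 2, in place of 1. In 6-OHDA muscle both omissions gave 1 and leaving out 1 library 0 to 2 in place of 0. The change of the 6-OHDA difference with genotype gave 1 without 3 libraries. Leaving out 1 library gave 0 to 2 between times in RE-RE 6-OHDA muscle and 0 to 6 for its change with genotype, and the change in sham muscle gave 1 without sham libraries 1 and 4. RE-RE groups held 2 libraries each, so omissions of RE-RE libraries left 1 library in a group. The counts under these omissions are given without the share of all genes called and are no result about the members. The causes were not tested.

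Splits of all genes into higher and lower also turned on the scale: at ZT0 1743 and 1312 as deposited, 4289 and 365 with own totals, 6922 and 163 as TPM; in RE-RE muscle 1522 and 1924, 3976 and 476, 4523 and 222; between genotypes in sham muscle 608 and 663, 244 and 733, 82 and 214. The labels give no shared source for equal replicate numbers, and same-numbered wild-type libraries correlated at -0.123 to 0.066. RE-RE ones correlated at 0.101 and 0.165, each shared by 2 numbers because deviations mirror each other in groups of 2, so these are 2 values and fewer than needed to show pairing. The replicate block gave 9 members over both times and 8 at ZT0. Adamts4, at 4 to 9 reads in wild-type sham muscle at ZT12, is limited by depth.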
